A study of Mus musculus with 12 samples.

Results

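The SLC25 genes encode the mitochondrial carriers, and 46 of them were followed in mouse aortic tissue after a short exposure to CM-695, a compound that inhibits both histone deacetylase 6 and phosphodiesterase 9. Members were chosen by gene symbol, Slc25a followed by a number, among probe sets that name 1 gene only, and where several named the same gene the highest mean over all 12 arrays would have selected among them. Each of the 46 had 1 such probe set, so no choice was needed, and the family made up 46 of 22180 genes measured this way. Slc25a33 was singled out with its difference between these same mice already known, so its values below are a description and not independent evidence. No member was left out for a low value.

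CM-695 was injected intraperitoneally in 6 mice at 80 mg/kg, 2 h before sacrifice and again 1 h before it. The other 6 mice received saline vehicle, which the design text records as a single injection. All 12 animals were CD-1 females, and CD-1 is an outbred stock. The labels name no engineered allele, and age was not given in the sources used here. Each mouse was perfused with buffered saline and its aorta was measured on 1 Affymetrix array, so the number of mice limits the precision.

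Mitochondrial carriers are small proteins of the inner mitochondrial membrane that exchange nucleotides, amino acids, carboxylic acids, phosphate, cofactors and metal ions between the cytosol and the matrix. ADP/ATP and phosphate carriers feed ATP synthesis, the citrate carrier exports carbon for lipid synthesis, and the carnitine carrier brings fatty acids in for oxidation. Slc25a33 and Slc25a36 encode the pyrimidine nucleotide carriers, which supply the matrix with precursors for mitochondrial DNA and RNA synthesis. In cultured cells the Slc25a33 product is known as a carrier induced by insulin-like growth factor signalling. Fat around the mouse thoracic aorta resembles brown fat, a tissue rich in mitochondria.

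Values are log2 expression values made with RMA, with array medians between 4.69 and 4.74 and correlations between arrays of 0.957 to 0.977 over all probe sets. Markers of the labelled tissue were bright: the smooth muscle actin gene Acta2 averaged 12.70 ± 0.56 in treated and 12.86 ± 0.33 in vehicle aortas (SD, n = 6 each). So was Ucp1, the uncoupling protein of brown fat, at 12.55 ± 0.47 in treated and 12.61 ± 0.23 in vehicle aortas (SD, n = 6 each). All 7 measured brown adipocyte markers lay above the array median in vehicle tissue, and their mean per mouse ran from 9.62 to 10.8 after CM-695 and from 10.1 to 10.8 after vehicle. Single markers of this list went both ways, with 5 higher and 2 lower after CM-695. Their differences ran from -0.95 for Dio2 (SE 0.35, limma adjusted p = 0.432) to 0.53 for Elovl3 (SE 0.38, limma adjusted p = 0.719). Cidea, Cox8b, Cox7a1 and Ucp1 hardly differed, at 0.001, 0.005, 0.008 and -0.05. Heart muscle markers, 10 of 11 above the array median in vehicle tissue, had a mean per mouse of 5.95 to 7.90 after CM-695 and of 6.90 to 8.68 after vehicle. Of these 11 markers, 8 were lower at an unadjusted limma p under 0.05, with a median difference of -1.60 over the list, and 0 passed the threshold used throughout, a limma p under 0.05 after Benjamini-Hochberg adjustment over all probe sets. Smooth muscle markers, Acta2 among them, were lower in 8 of 8, with 0 at an unadjusted limma p under 0.05 and a median of -0.29. The smooth muscle mean per mouse ran from 8.75 to 10.6 after CM-695 and from 9.28 to 10.1 after vehicle. Fibroblast markers were lower in 8 of 8, with 3 at an unadjusted limma p under 0.05 and a median of -0.49. The fibroblast mean per mouse ran from 8.67 to 9.25 after CM-695 and from 8.95 to 9.81 after vehicle. Liver markers were higher in 8 of 8, with CM-695 mouse 5 at a mean of 6.67, against 4.37 to 5.22 in the other treated mice and 4.34 to 4.74 in vehicle mice. Of 7 platelet markers 3 were higher at an unadjusted limma p under 0.05, with means of 5.18 to 5.58 after CM-695 and 4.99 to 5.38 after vehicle. None of the smooth muscle, fibroblast, liver or platelet markers passed the threshold, and their part in the carrier results was not tested. In such bulk samples, fewer cells of a type and less RNA per cell cannot be told apart.

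CM-695 mouse 2 stood apart from the other treated mice. It was the lowest of the 6 for 23 of 46 carriers, against 23.9% of all genes. Its brown adipocyte mean was 9.62, against 10.2 to 10.8 in the other 5 treated mice, its general adipocyte mean 9.17 against 9.81 to 10.2, and its smooth muscle mean 10.6 against 8.75 to 9.72. Leaving it out moved the CM-695 minus vehicle difference by over 1.5 times for 23 of 46 carriers, 0 of them called without it, and turned the sign for Slc25a16 (-0.10 with it, 0.01 without) and Slc25a38 (0.00 with it, -0.01 without). The larger of these moves are given below beside the carriers concerned. A difference near 0 moves by over 1.5 times with a small change, and the share of all genes that did so was not computed.

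Slc25a33 fell after CM-695 and was the only carrier past the threshold. Its values were 6.09, 4.99, 5.62, 6.67, 6.13 and 6.04 in CM-695 mice 1 to 6, against 7.37, 7.12, 7.24, 7.09, 7.16 and 7.29 in vehicle mice 1 to 6. The groups did not overlap: the highest treated mouse, mouse 4, lay 0.42 below the lowest vehicle mouse. Treated aortas averaged 5.92 ± 0.56 and vehicle aortas 7.21 ± 0.11 (SD, n = 6 each). CM-695 minus vehicle was -1.29 in log2 units, or 2.44-fold lower, with an SE of 0.21 and a 95% confidence interval from -1.75 to -0.83. In limma's test over all 41345 probe sets the adjusted p was 0.0341. Thus 1 of 46 carriers was called lower, where 0.144% of all genes were, and 0 were called higher, where 0.0225% of all genes were. Leaving out CM-695 mouse 1, 3, 5 or 6 or any 1 of the 6 vehicle mice ended the call (limma adjusted p up to 0.0907), while the difference stayed between -1.44 and -1.10 over all 12 omissions. Without CM-695 mouse 2 the difference was -1.10 (SE 0.15, limma adjusted p = 0.0156).

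The treated mice varied in Slc25a33 far more than the vehicle mice did. Its SD in vehicle tissue was the 41st of 46, among the tightest of the family, and its SD after CM-695 was the 4th of 46, 5.31 times as large. Without CM-695 mouse 2 its treated SD was 0.37, again the 4th of 46, and the ratio fell to 3.51 times. CM-695 mice 2 and 3 were lowest and mouse 4 highest, with mice 1, 5 and 6 within 0.1 log2 of each other. Mouse 2, lowest in Slc25a33, also had the lowest brown adipocyte mean, 9.62, while mice 3 and 4 were both at 10.8. Heart muscle means were 5.95, 6.73, 7.90, 6.17, 7.44 and 7.08 in CM-695 mice 1 to 6. The part of tissue content in this spread was not tested. With the heart muscle mean as a covariate the Slc25a33 difference was -1.48 (SE 0.29, limma adjusted p = 0.147), and with the brown adipocyte mean it was -1.27 (SE 0.17, limma adjusted p = 0.00686). The heart muscle mean itself differed by -1.15 between the groups. Fits with the heart muscle covariate, here and below, therefore cannot tell tissue content from treatment.

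**Figure D1:**
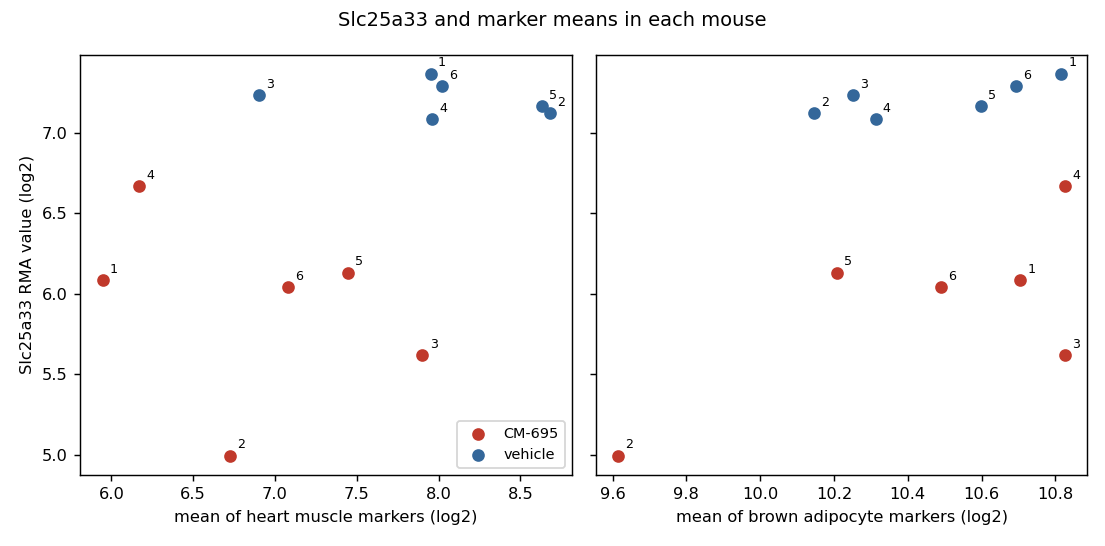
RMA value of Slc25a33 (vertical axis, log2) against the mean of the heart muscle markers (left) and of the brown adipocyte markers (right, log2) in each mouse, numbered within its group; red points are CM-695 mice and blue points vehicle mice. All 6 CM-695 mice lie below all 6 vehicle mice at similar brown adipocyte means, apart from CM-695 mouse 2 at 9.62, and heart muscle means reach lower in the CM-695 group.

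Its closest functional relative did not pass the threshold. Slc25a36, the other pyrimidine nucleotide carrier, measured 7.14, 6.99, 7.07, 7.21, 7.29 and 7.11 in CM-695 mice 1 to 6, against 7.06, 7.13, 6.97, 6.79, 7.14 and 7.13 in vehicle mice 1 to 6. The groups overlapped, with treated mice 4 and 5 highest and vehicle mice 3 and 4 lowest of the 12, and CM-695 minus vehicle was 0.10, with an SE of 0.090, a 95% confidence interval from -0.09 to 0.29 and a limma adjusted p of 0.780. The log2 value of Slc25a33 minus that of Slc25a36 averaged -1.21 ± 0.48 in treated and 0.17 ± 0.14 in vehicle aortas (SD, n = 6 each). The values come from different probes, so the difference between groups in this quantity can be read and its level cannot.

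Promoter sequences are shown for both pyrimidine carriers and for Slc25a30, the other member whose groups did not overlap. They come from RefSeq on the GRCm38.p6 build and run 5′ to 3′ from 250 bases before the annotated start to 50 after it, with matches to the motifs searched in capitals.
Slc25a33, chr4:149774218-149774517, minus strand: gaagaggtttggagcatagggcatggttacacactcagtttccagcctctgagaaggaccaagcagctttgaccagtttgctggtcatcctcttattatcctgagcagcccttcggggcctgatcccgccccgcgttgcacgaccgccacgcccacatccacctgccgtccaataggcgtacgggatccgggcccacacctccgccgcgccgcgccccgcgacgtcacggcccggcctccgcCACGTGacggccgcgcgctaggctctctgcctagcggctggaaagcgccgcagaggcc
Slc25a36, chr9:97110992-97111291, minus strand: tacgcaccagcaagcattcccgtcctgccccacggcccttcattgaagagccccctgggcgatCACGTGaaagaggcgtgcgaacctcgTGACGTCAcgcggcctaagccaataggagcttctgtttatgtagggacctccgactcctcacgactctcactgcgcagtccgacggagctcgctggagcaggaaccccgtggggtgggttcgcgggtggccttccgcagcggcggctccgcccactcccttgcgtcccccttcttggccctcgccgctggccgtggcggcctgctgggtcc
Slc25a30, chr14:75786988-75787287, minus strand: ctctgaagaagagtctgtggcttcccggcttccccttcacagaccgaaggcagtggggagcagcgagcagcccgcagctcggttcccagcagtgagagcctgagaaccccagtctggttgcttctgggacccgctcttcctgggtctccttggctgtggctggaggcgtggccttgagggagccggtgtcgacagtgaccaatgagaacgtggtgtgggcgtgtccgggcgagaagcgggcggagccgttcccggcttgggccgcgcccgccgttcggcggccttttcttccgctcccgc

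Of the motifs searched on both strands, the Slc25a33 promoter held 1 E-box, CACGTG, the sequence bound by clock activators and other basic helix-loop-helix factors, whose first base lies at position -8 from the start. The Slc25a36 promoter held an E-box at position -187 and a cyclic AMP response element, TGACGTCA, at -161, counted from the start. RefSeq promoters were found for 36 of the 46 carriers, 46 promoters in all, of which 8 held an E-box, against 7.15% of all 32851 promoters of that length. The 7 genes were Slc25a1, Slc25a13, Slc25a14, Slc25a15, Slc25a31, Slc25a33 and Slc25a36, and of these only Slc25a33 passed the threshold. TGACGTCA occurred in 2 of 46 (1.79% of all promoters) and AGGTCA, the core bound by ROR receptors, in 4 of 46 (16.3% of all). The D-box TTATGTAA, the heat shock element (GAA, 2 bases, TTC, 2 bases, GAA) and the glucocorticoid response element (AGAACA, 3 bases, TGTTCT) matched 0 of 46 (0.938%, 0.603% and 0.00913% of all). A match is a string in this window and no measure of binding.

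Of 46 differences, 28 were above 0 and 18 below, with a median of 0.06 log2, beside 0.02 over all genes. Among all 22180 genes, 12267 were above 0. The difference was under 0.2 log2 in size for 30 carriers, and for 34 the 95% confidence interval excluded a change of 1.5-fold in either direction. Slc25a33 had the largest difference in size, 1.67 times that of the next, Slc25a10, and 10.2 times the median size of the other 45, which was 0.13. Over all genes 47, or 0.212%, differed by at least as much. At an unadjusted limma p under 0.05 there were 9 carriers, 4 lower and 5 higher, which is 19.6% of the family against 9.10% of all genes. Without CM-695 mouse 2 there were again 9, against 12.1% of all genes, with Slc25a43 in the place of Slc25a51.

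**Figure D2:**
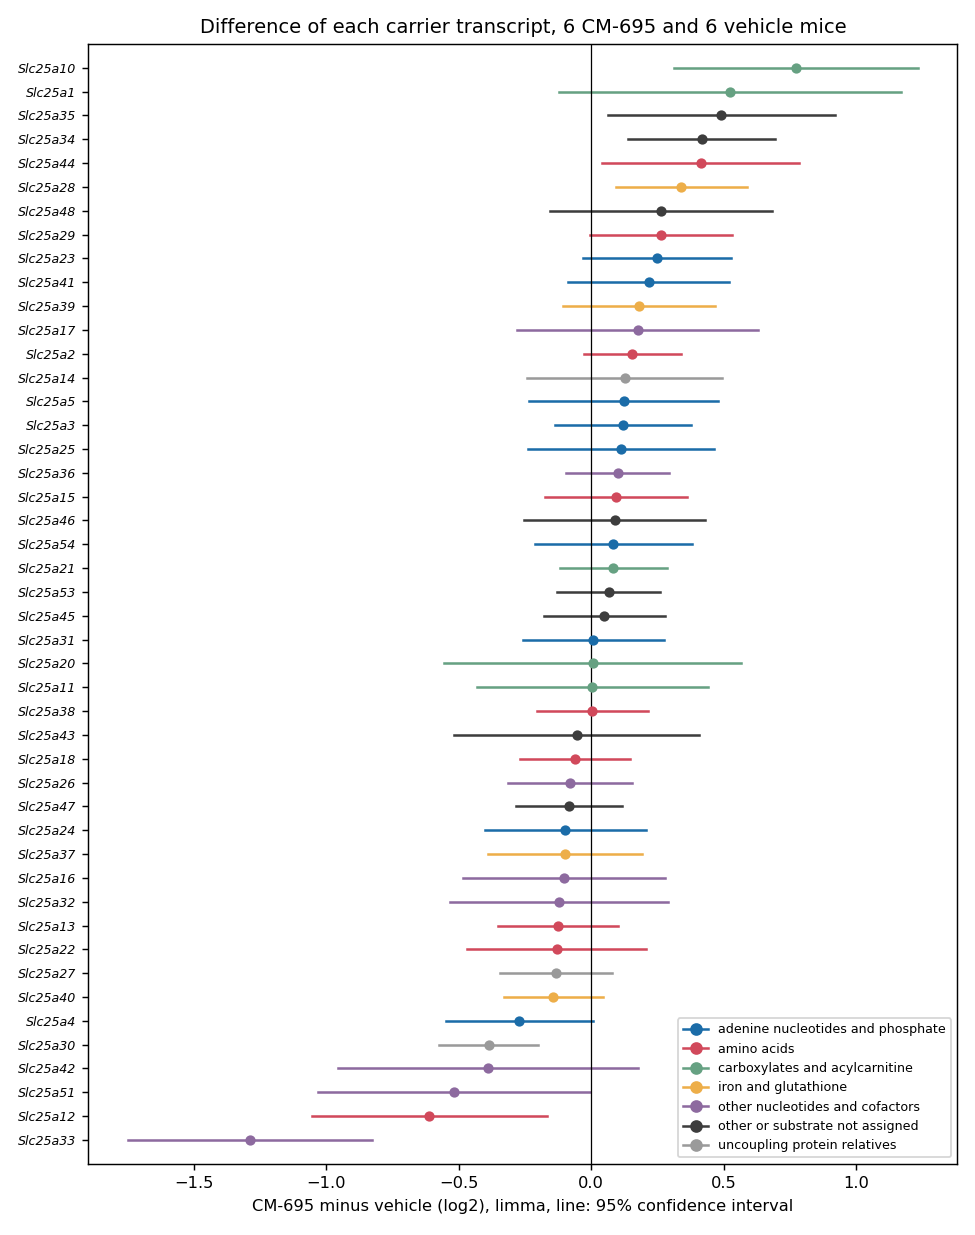
Difference between CM-695 and vehicle (horizontal axis, log2, 6 mice each) for the 46 carriers in order of size, coloured by substrate class; points are limma estimates and lines 95% confidence intervals. Slc25a33, at -1.29, lies below all others, and most intervals include 0.

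The groups did not overlap for 2 carriers, Slc25a33 and Slc25a30, both lower after CM-695, where 0.636% of all genes had every treated mouse below every vehicle mouse. For 0 of 46 carriers was every treated mouse above, where 0.442% of all genes were. Slc25a30, the kidney mitochondrial carrier protein and a relative of the uncoupling proteins, measured 5.86, 5.77, 5.67, 5.72, 5.69 and 6.02 in CM-695 mice 1 to 6. The vehicle mice measured 6.21, 6.27, 6.28, 6.06, 6.17 and 6.07. The gap between the groups was 0.033, and the difference was -0.39 (SE 0.087, limma adjusted p = 0.130), short of the threshold. Without CM-695 mouse 2 the groups did not overlap for 4 carriers, now also Slc25a12, lower, and Slc25a28, higher, where 2.05% of all genes did not.

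**Figure D3:**
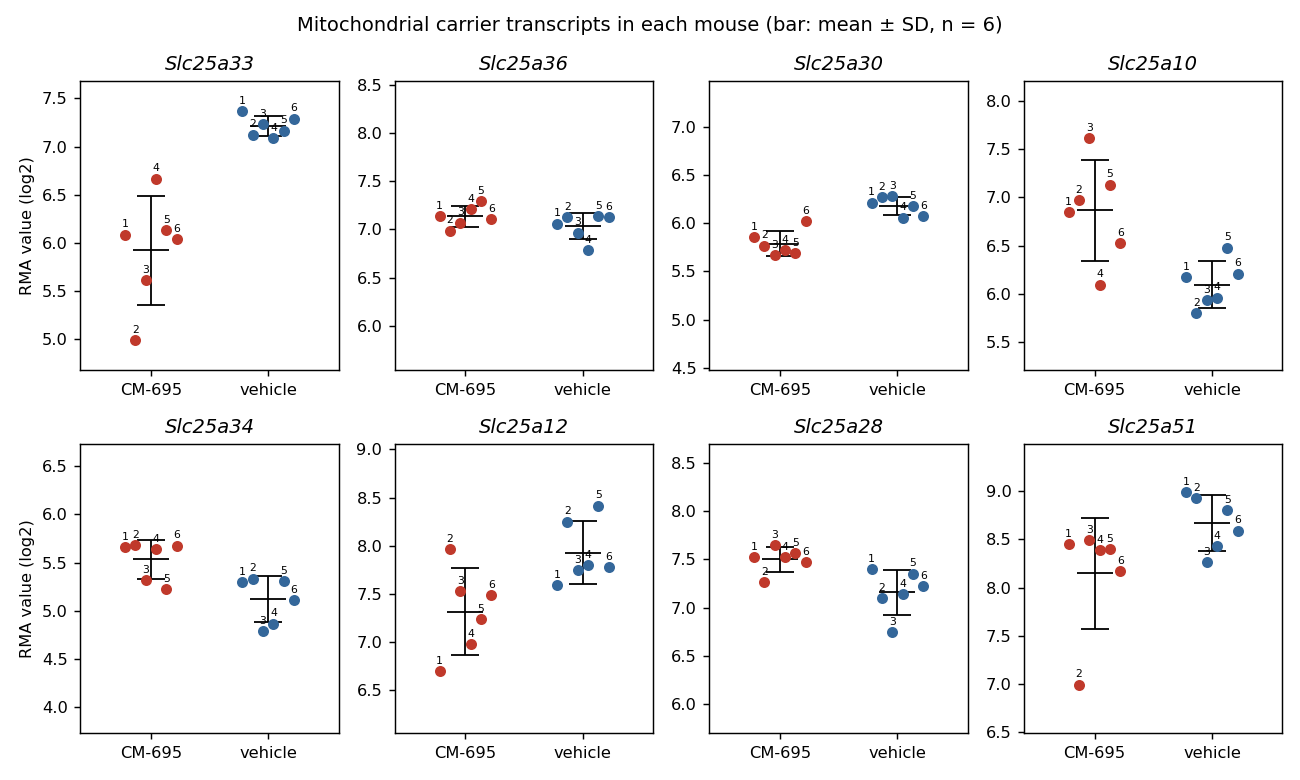
RMA values (vertical axis, log2, each panel spanning the same range of 3) of 8 carriers in each mouse, CM-695 in red on the left and vehicle in blue on the right, numbered within the group; bars give the mean and SD of 6 mice. Slc25a33 shows a wide gap and Slc25a30 a narrow one, Slc25a36 overlaps, and CM-695 mouse 2 is far below the others for Slc25a51.

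The 9 carriers of adenine nucleotides and phosphate did not pass the threshold in either direction, and their differences lay between -0.27 and 0.25. Slc25a4, the ADP/ATP carrier of heart and muscle, averaged 8.85 ± 0.23 in treated and 9.13 ± 0.21 in vehicle aortas (SD, n = 6 each), differing by -0.27 (SE 0.13, limma adjusted p = 0.557). With the heart muscle mean as a covariate, which itself differed between the groups, the Slc25a4 difference was 0.02 (SE 0.13). Slc25a5, the broadly expressed ADP/ATP carrier, averaged 10.81 ± 0.34 in treated and 10.69 ± 0.27 in vehicle aortas (SD, n = 6 each), and Slc25a3, the phosphate carrier, differed by 0.12. Without CM-695 mouse 2 the Slc25a5 difference of 0.12 was 0.25 (SE 0.14) and that of Slc25a3 was 0.21. The ATP-magnesium/phosphate carriers Slc25a23, Slc25a24, Slc25a25 and Slc25a41 differed by 0.25, -0.10, 0.11 and 0.22. With the heart muscle covariate the Slc25a23 difference was 0.44 (SE 0.16, limma adjusted p = 0.609). Slc25a54, close in family to Slc25a24, and Slc25a31, the testis ADP/ATP carrier, were dim and differed by 0.08 and 0.01.

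Beside the pyrimidine carriers, 6 carriers of other nucleotides and cofactors were measured, and 0 passed the threshold. Slc25a51, which carries NAD into mitochondria, measured 8.45, 6.99, 8.49, 8.39, 8.40 and 8.17 in CM-695 mice 1 to 6, against 8.99, 8.93, 8.26, 8.43, 8.80 and 8.59 in vehicle mice 1 to 6. Mouse 2 was far below the other treated mice, which overlapped the vehicle mice, and the difference of -0.52 (SE 0.24, limma adjusted p = 0.539) was -0.29 (SE 0.14) without it and -0.30 (SE 0.32) with the heart muscle covariate. Slc25a42, a coenzyme A carrier, behaved alike in that mouse, at 7.13 against 8.26 to 8.75 in the other treated mice, and its mean differed from vehicle by -0.39 with that mouse and by -0.15 (SE 0.18) without it. Slc25a16, linked to coenzyme A, Slc25a26, the S-adenosylmethionine carrier, and Slc25a32, which carries folate or FAD, differed by -0.10, -0.08 and -0.12, and without CM-695 mouse 2 Slc25a26 by -0.02 and Slc25a32 by -0.01. The peroxisomal carrier Slc25a17 differed by 0.17, and by 0.32 without that mouse.

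Of 9 amino acid carriers, 0 passed the threshold. Slc25a12, an aspartate/glutamate carrier of the malate-aspartate shuttle that is abundant in heart and muscle, measured 6.70, 7.97, 7.53, 6.98, 7.24 and 7.49 in CM-695 mice 1 to 6, against 7.59, 8.25, 7.74, 7.80, 8.42 and 7.78 in vehicle mice 1 to 6. Treated mouse 2 alone lay within the vehicle range. The difference was -0.61 (SE 0.21, limma adjusted p = 0.364), and with the heart muscle mean as a covariate it was -0.22 (SE 0.23). Slc25a13, the aspartate/glutamate carrier citrin of liver, was dim here and differed by -0.13. Slc25a44, which carries branched-chain amino acids in brown fat, averaged 7.90 ± 0.23 in treated and 7.48 ± 0.39 in vehicle aortas (SD, n = 6 each), differing by 0.41 (SE 0.17, limma adjusted p = 0.497) and by 0.63 (SE 0.22) with the heart muscle covariate. The basic amino acid and ornithine carriers Slc25a29, Slc25a2 and Slc25a15 differed by 0.26, 0.16 and 0.09. The glutamate carriers Slc25a22 and Slc25a18 differed by -0.13 (-0.03 without CM-695 mouse 2) and -0.06, and the glycine carrier Slc25a38 by 0.00.

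All 5 carriers of carboxylates and acylcarnitine had differences above 0, as had 12267 of all 22180 genes, and 0 passed the threshold. Those of Slc25a11 and Slc25a20 were near 0, at 0.004 and 0.005. Slc25a10, the dicarboxylate carrier that exchanges malate or succinate for phosphate, measured 6.84, 6.97, 7.62, 6.09, 7.13 and 6.53 in CM-695 mice 1 to 6. The vehicle mice measured 6.17, 5.80, 5.93, 5.96, 6.48 and 6.21. All treated mice except mouse 4 lay above the vehicle range, with mouse 3 highest, and the difference was 0.77 (SE 0.21, limma adjusted p = 0.245), the largest positive one of the family. With the heart muscle mean as a covariate it was 1.15 (SE 0.25, limma adjusted p = 0.228).

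Slc25a1, the citrate carrier that supplies lipid synthesis, measured 11.01, 11.06, 11.81, 10.53, 11.29 and 10.97 in CM-695 mice 1 to 6, against 11.18, 9.24, 10.53, 10.53, 11.00 and 11.04 in vehicle mice 1 to 6. Vehicle mouse 2 was far below the rest, and the difference of 0.52 (SE 0.30, limma adjusted p = 0.629) was 0.26 without that mouse. CM-695 mouse 3 was highest for both Slc25a1 and Slc25a10. Slc25a20, which exchanges carnitine for acylcarnitine in fatty acid oxidation, and Slc25a11, the oxoglutarate carrier, each differed by 0.00. CM-695 mouse 2 was the lowest of the treated mice for both, at 8.57 and 8.04, and without it the differences were 0.22 (SE 0.20) and 0.14 (SE 0.18). The oxodicarboxylate carrier Slc25a21 was dim and differed by 0.08.

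Among iron and glutathione carriers, Slc25a28, mitoferrin 2, measured 7.53, 7.26, 7.65, 7.53, 7.56 and 7.47 in CM-695 mice 1 to 6, against 7.40, 7.10, 6.75, 7.14, 7.35 and 7.22 in vehicle mice 1 to 6. Treated mouse 2 alone lay within the vehicle range, and the difference was 0.34 (SE 0.11, limma adjusted p = 0.364). Slc25a37, mitoferrin 1 of red cell precursors, differed by -0.10 (-0.20 without CM-695 mouse 2), and Slc25a39 and Slc25a40, the glutathione carriers, by 0.18 and -0.14. The 2 uncoupling protein relatives beside Slc25a30 were Slc25a27 at -0.13 and Slc25a14 at 0.13.

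The last 8 carriers have a less settled substrate or another role. Slc25a34 averaged 5.53 ± 0.21 in treated and 5.12 ± 0.24 in vehicle aortas (SD, n = 6 each), differing by 0.42 (SE 0.13, limma adjusted p = 0.321). Slc25a35, close to it in family, averaged 9.62 ± 0.34 in treated and 9.13 ± 0.40 in vehicle aortas (SD, n = 6 each), differing by 0.49 (SE 0.20, limma adjusted p = 0.476). In both, treated and vehicle mice overlapped. A probe set naming Slc25a35 together with its chromosomal neighbour Rangrf, which the choice of members left out, differed by 0.34 (SE 0.21, limma adjusted p = 0.656). Slc25a43, Slc25a45, Slc25a47, Slc25a48 and Slc25a53 differed by -0.06, 0.05, -0.08, 0.26 and 0.07. Slc25a46, an outer membrane protein linked to mitochondrial fusion and fission, differed by 0.09. Without CM-695 mouse 2 Slc25a43 differed by -0.27 and Slc25a46 by 0.20.

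**Figure D4:**
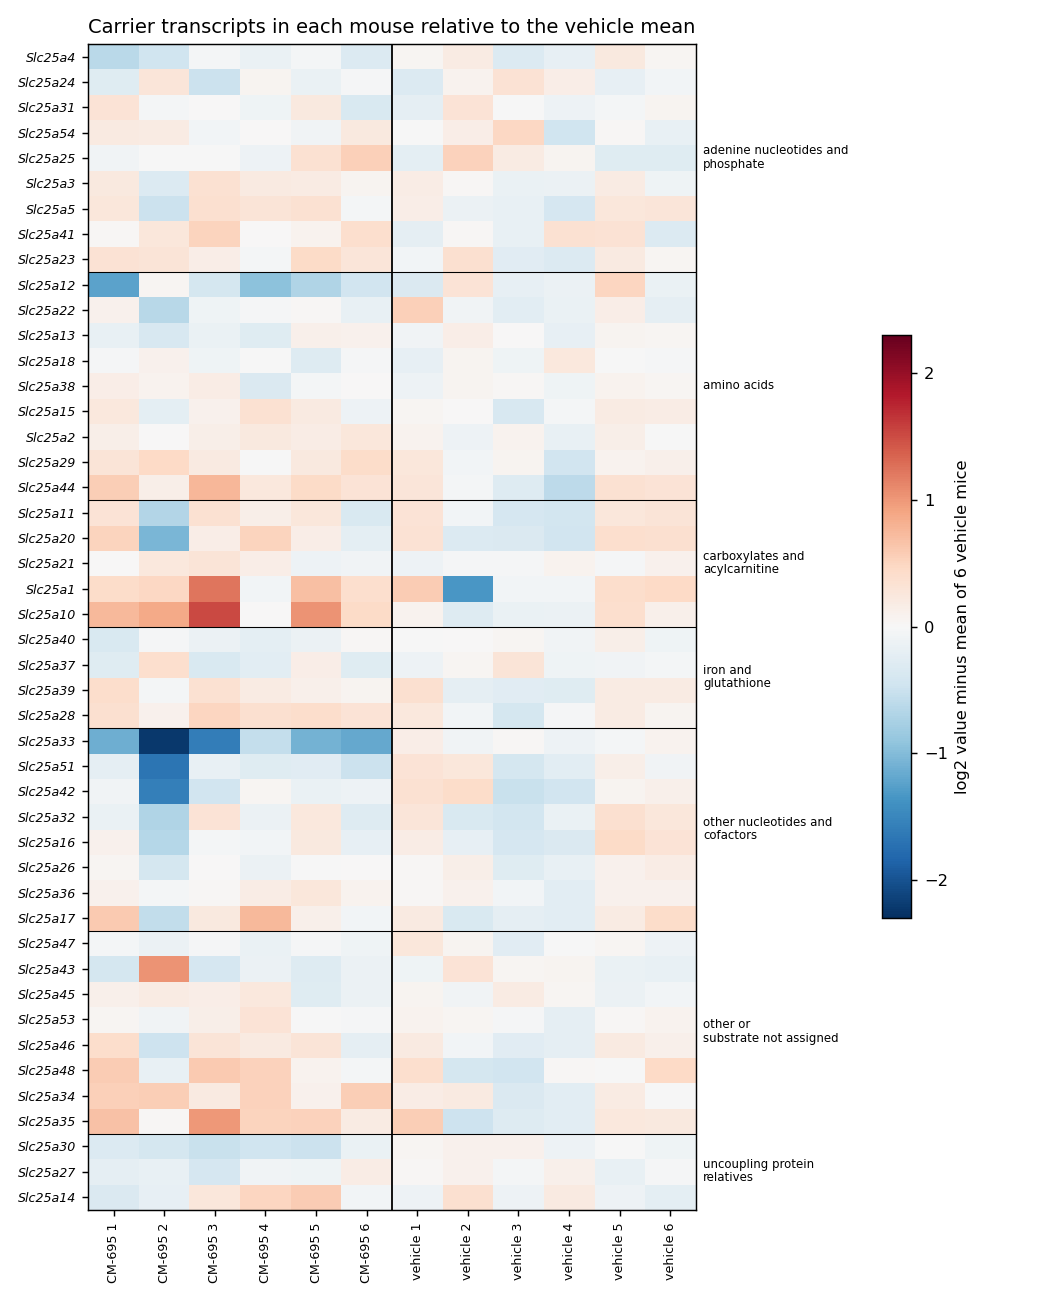
Log2 value of each carrier in each mouse minus the mean of the 6 vehicle mice (colour, blue below it and red above it), with carriers in rows grouped by substrate class and mice in columns, CM-695 left of the line and vehicle right of it. The Slc25a33 row is blue in all 6 CM-695 mice, and CM-695 mouse 2 is also low for Slc25a51, Slc25a42 and Slc25a20.

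Ordered by signal in vehicle aorta, the carriers spanned 10.69 to 3.49. The highest were Slc25a5 at 10.69 ± 0.27, Slc25a1 at 10.59 ± 0.71, Slc25a20 at 9.62 ± 0.40, Slc25a35 at 9.13 ± 0.40, Slc25a4 at 9.13 ± 0.21 and Slc25a23 at 9.01 ± 0.27 (SD, n = 6 each). The lowest were Slc25a54 at 3.49 ± 0.31, Slc25a41 at 3.73 ± 0.29, Slc25a21 at 3.80 ± 0.08, Slc25a31 at 3.94 ± 0.18, Slc25a2 at 3.99 ± 0.12 and Slc25a13 at 4.44 ± 0.12 (SD, n = 6 each). Probe sets differ in affinity and the values are not per length, so this is an order of signals and not of transcript numbers. Of 45 pairs of neighbours in it, 30 differed by less than the smaller of their SDs, Slc25a5 and Slc25a1 among them, and detection calls were not used here, so weak expression and none cannot be told apart in the dimmest. In vehicle tissue 36 of 46 carriers lay above the array median.

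Slc25a33 took the 27th place by mean signal over the CM-695 mice, against the 19th over the vehicle mice. In single mice it stood between the 22nd and the 37th place after CM-695, and between the 17th and the 20th after vehicle. Slc25a10 took the 21st place after CM-695 and the 27th after vehicle. The other leading places changed little, Slc25a1 and Slc25a5 exchanging the first and the second.

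**Figure D5:**
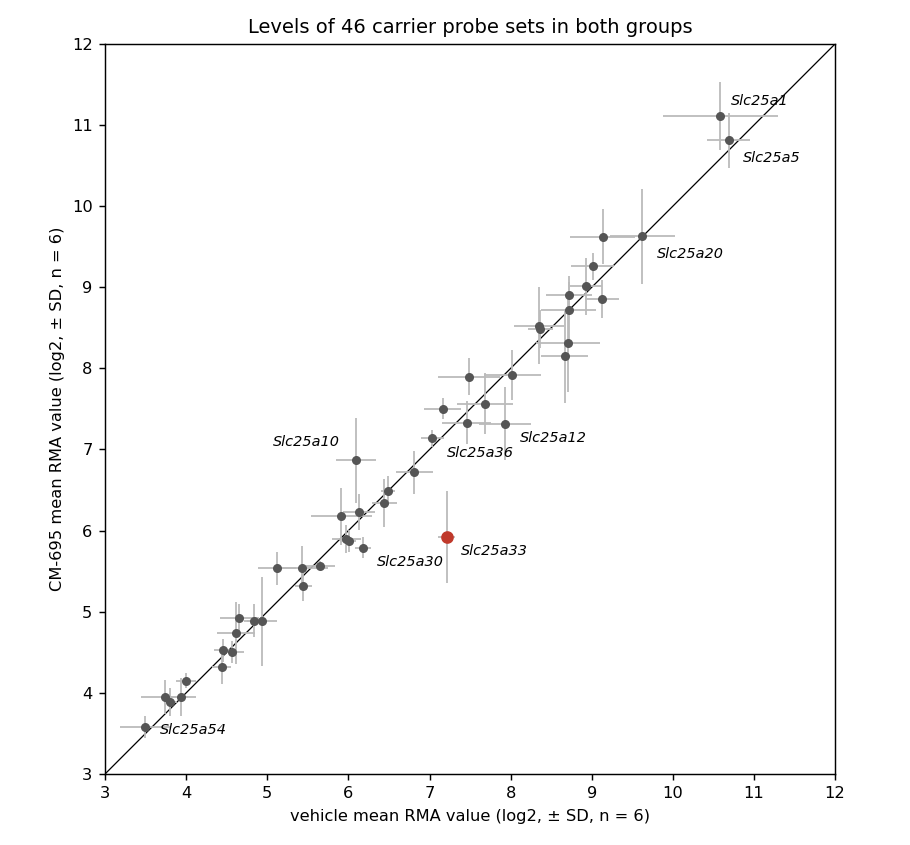
Mean RMA value after CM-695 (vertical axis, log2) against the mean after vehicle (horizontal axis, log2) for the 46 carriers, with SD over 6 mice as error bars and the line of equal values. Slc25a33, in red, lies farthest below the line, at 5.92 after CM-695 and 7.21 after vehicle.

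Spread between mice differed widely between carriers. Over vehicle mice Slc25a1 varied most (SD 0.71), followed by Slc25a35 and Slc25a20 (0.40 each) and by Slc25a42 and Slc25a44 (0.39 each), and Slc25a21 (0.082), Slc25a40 (0.086) and Slc25a38 (0.089) varied least. After CM-695 the largest SDs were 0.60 for Slc25a42, 0.59 for Slc25a20, 0.58 for Slc25a51, 0.56 for Slc25a33 and 0.55 for Slc25a43. CM-695 mouse 2 was the extreme treated mouse in all 5, highest in Slc25a43 and lowest in the others. Without it the SDs were 0.18 for Slc25a42, 0.31 for Slc25a20, 0.12 for Slc25a51, 0.37 for Slc25a33 and 0.13 for Slc25a43, and the largest of the family was that of Slc25a10, 0.58. The SD was larger after CM-695 for 27 of 46 carriers, or 58.7%, beside 56.2% of all genes, and for 17 of 46 without CM-695 mouse 2. The share of all genes without that mouse was not computed, so the 17 cannot be read as a trait of the carriers.

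Relatives and partners of the carriers were read from lists chosen with earlier results of these data known. Of the relatives with other symbols, Ucp1 differed by -0.05 (SE 0.20), Ucp3 by 0.02, and the outer membrane proteins Mtch1 and Mtch2 by 0.06 and 0.15. Among 13 genes for the import of carriers into the inner membrane, 0 passed the threshold, with a median of 0.09 and the small chaperone gene Timm10b at 0.29 (SE 0.12, limma adjusted p = 0.519). Among 16 measured genes of mitochondrial nucleotide supply and nucleic acid synthesis, 0 passed, with a median of 0.10. The mitochondrial UMP-CMP kinase gene Cmpk2, also an interferon-induced gene, averaged 5.98 ± 0.24 in treated and 5.48 ± 0.27 in vehicle aortas (SD, n = 6 each), differing by 0.50 (SE 0.14, limma adjusted p = 0.261). The mitochondrial nucleotidase gene Nt5m differed by 0.22 (SE 0.11) and the mitochondrial DNA polymerase gene Polg by -0.22 (SE 0.11). Of 15 other mitochondrial transporters and channels 0 passed, with a median of 0.08, the pyruvate carrier gene Mpc1 at 0.26 (SE 0.25), the ABC transporter gene Abcb10 at 0.15 (SE 0.13) and the sideroflexin gene Sfxn2 at -0.12 (SE 0.10).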

How the data were processed

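Aortic RNA of 12 mice was measured on 1 array each. The deposited table holds log2 expression values for 41345 probe sets, which the authors computed by RMA, per the submitters' processing notes. No software version or genome build is given in the sources used here. Platform annotation supplied the gene symbols. Groups came from the sample titles, and the sources name no batch.

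A linear model with a group term was fitted to every probe set (limma 3.58.1, lmFit and eBayes, R 4.3.3, two-sided). Benjamini-Hochberg adjustment ran over all 41345 probe sets, and 0.05 was the threshold. Differences are CM-695 minus vehicle. The fit was tested on simulated data with known changes. Tables and figures used Python 3.11.15. Members and lists were chosen with earlier results of these data known. Nothing in the labels says more of the replicates than that they were separate mice. Alternatives covered the replicate number as a block, dim probe sets, normalization, scaling, array weights, the variance prior, marker means as covariates and each mouse left out. Full values went to Slc25a33, Slc25a36, members past the threshold or without overlap, and up to 12 others with the smallest p, and levels to the 6 highest and 6 lowest. Of each related list up to 3 genes with the smallest p were named. Relatedness by protein sequence was not used here, so Slc25a36 was taken as the relative of Slc25a33 by function.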

Additional observations from a re-analysis of the deposited data

Results flagged for a closer look

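In groups of 6 mice, 5 of 92 group values of the carriers had a single mouse far from the others. Chance gives such a gap in about 1 of 20 groups of independent normal values, so the count is near that rate. The share over all genes was not computed. Of the 5, 4 were in CM-695 mouse 2. In that mouse Slc25a51 measured 6.99 (8.17 to 8.49 in the other treated mice), Slc25a42 measured 7.13 (8.26 to 8.75) and Slc25a22 measured 6.82 (7.29 to 7.57). Slc25a43 measured 5.97 there, above the 4.53 to 4.81 of the other treated mice, and its difference from vehicle was -0.27 (SE 0.11) without that mouse and -0.06 (SE 0.21) with it. In vehicle mouse 2 Slc25a1 measured 9.24, against 10.5 to 11.2 in the other vehicle mice. The part of tissue content in these values was not tested.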

How the results depend on the processing

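The Slc25a33 difference stayed negative under every alternative run. It no longer passed the threshold with the replicate block (-1.29, SE 0.20, limma adjusted p = 0.124) or with the heart muscle mean as a covariate (-1.48, adjusted p = 0.147), each of which left 0 carriers called and 15 and 13 probe sets in place of 64. The labels do not say whether replicate numbers pair the mice. Deviations of same-numbered mice correlated between -0.25 and 0.20, and 2 of 6 treated mice correlated best with their own number. With 6 mice per group that also differ in tissue content, this check cannot decide whether the numbers pair the mice. With 1 mouse left out the difference ran from -1.44 to -1.10, the carriers called from 0 to 1, the probe sets called from 22 to 98, and the gap between the groups from 0.42 to 0.96. The call held with the dim probe sets filtered out (116 probe sets called), the brown adipocyte mean as a covariate (126), repeated quantile normalization, median scaling, array weights, the trended prior and a 1.5-fold threshold. Slc25a33 took the 27th place by signal over the CM-695 arrays. Of 259 refits of 13 other carriers, 258 kept direction and stayed short of the threshold (adjusted p 0.0571 to 0.882), and Slc25a4 turned to 0.017 with the heart muscle covariate. Each carrier had 1 single-gene probe set, so no other could be tried. The causes were not tested.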

Other observations

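The coding genes next to Slc25a33 on chromosome 4 are Tmem201 and Spsb1 in the RefSeq table. Tmem201 averaged 6.22 ± 0.12 in treated and 6.29 ± 0.08 in vehicle aortas (SD, n = 6 each), differing by -0.07 (SE 0.083, limma adjusted p = 0.841). Spsb1, which encodes a ubiquitin ligase adaptor, averaged 6.31 ± 0.16 in treated and 6.60 ± 0.15 in vehicle aortas (SD, n = 6 each), differing by -0.29 (SE 0.10, limma adjusted p = 0.386). Slc25a36 on chromosome 9 lies next to Spsb4, a relative of Spsb1, which differed by -0.04 (SE 0.17). All of these neighbours were chosen for their position.

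Members next to each other on a chromosome formed 4 pairs: Slc25a29 with Slc25a47, Slc25a41 with Slc25a23, Slc25a43 with Slc25a5, and Slc25a54 with Slc25a24. In CM-695 mouse 2 Slc25a43 was the highest of the treated mice and Slc25a5 the lowest, at 5.97 and 10.2.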
